A study of Malus hupehensis with 9 samples.

Results

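Messenger RNA of phloem was compared at bud break between the columnar apple hybrid QZ1 and A1d, a mutant of Malus hupehensis that is only partly insensitive to gibberellin. The comparison used 6 of the 9 libraries of the study, 3 of QZ1 and 3 of A1d. The remaining 3, labelled WT, came from unmutated M. hupehensis (PYTC in the titles) and stayed out of the fit. QZ1 is a cross of M. hupehensis, the mother, with CO, a columnar line of Malus × domestica, so both rootstocks carry M. hupehensis ancestry. They differ in the mutation, in the paternal genome and in columnar habit at once, and these differences cannot be told apart here. No treatment is named in the labels. The series text speaks of "tree replicates", which may mean separate trees or only that there were 3 replicates, and the sample labels do not settle it. P-values therefore describe library-to-library spread, part of which may be technical.

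Phloem is the conducting tissue of the bark. At bud break it carries stored sugars and signals to the buds that resume growth. Gibberellins are growth hormones that bind a receptor and lead to the breakdown of DELLA proteins, which restrain growth, so that partly insensitive plants tend to be compact. Columnar apple trees grow upright with short, spur-like side branches, a habit that maps to the Co locus on chromosome 10. The deposited table pairs no identifier with a gene name, so genes are described by identifier, level, length and place. Phloem markers could not be looked up for the same reason, and the label of the tissue was not checked against the data.

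The table gives FPKM, the number of fragments or reads per kilobase of gene, scaled to the library total, for 39951 identifiers. Its steps returned whole reads, with 15684510 to 18022986 per library in QZ1 and A1d. A1d replicate 1 stood apart, with 18107 genes at 0 against 7183 to 9029 in the other 5 libraries. Across the tested genes its Pearson r with A1d replicates 2 and 3 was 0.786 and 0.779, while A1d replicates 2 and 3 correlated at 0.956 and the QZ1 libraries at 0.932 to 0.955. The main results are therefore given with and without A1d replicate 1.

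With all libraries, a small share of phloem transcripts passed the test for a difference between QZ1 and A1d, in nearly equal numbers upward and downward. Genes reaching 1 FPKM in 2 or more of the 6 libraries were tested, 26304 in all. At a Benjamini-Hochberg adjusted p under 0.05 in limma, 401 genes were called (1.52%). Of these, 214 were higher in QZ1 (0.814% of those tested) and 187 lower (0.711%). Most of these differences were large: the median absolute log2 fold change on the log2(FPKM + 1) scale was 2.41, 277 exceeded 2 log2 units, 110 exceeded 3 and 23 exceeded 4.

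Leaving out A1d replicate 1 raised the number called to 1885 of 25937 tested genes (7.27%), 920 higher in QZ1 (3.55%) and 965 lower (3.72%). All 401 genes called with 6 libraries were among them, and 401 of 401 in the same direction. The calls now reached smaller differences, and the median size over the 1885 was 1.37 log2 units. The median standard deviation of a gene within A1d was 0.51 log2 units with replicate 1 and 0.17 without it, beside 0.21 within QZ1. The 0.17 rests on fewer libraries than the other values, which by itself favours a smaller median, so it does not show A1d as less variable than QZ1. The slight lean toward higher genes in the 6 libraries was absent from the 5.

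**Figure D1:**
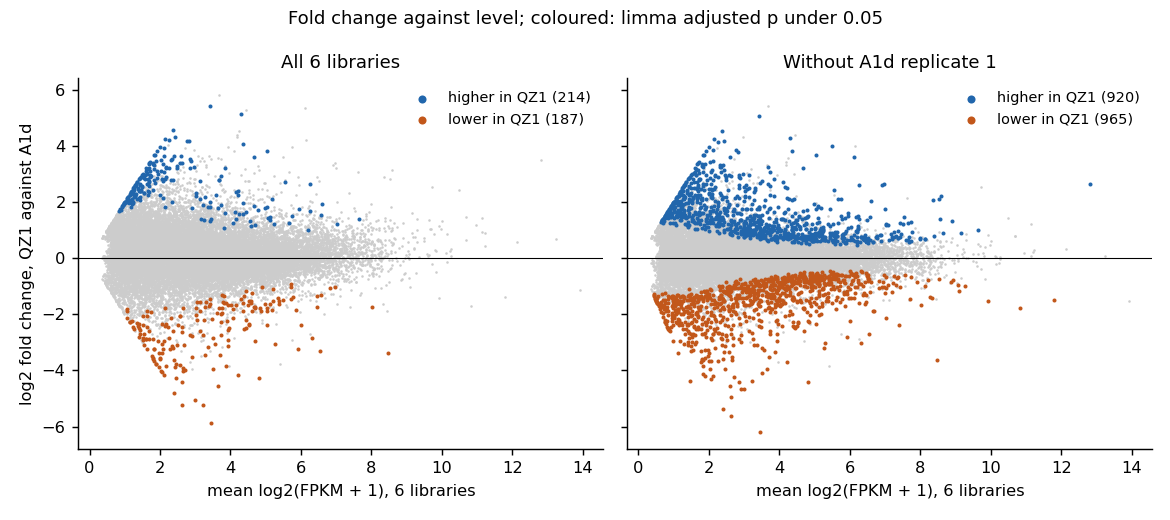
Log2 fold change of QZ1 against A1d (vertical axis, log2(FPKM + 1) scale) by mean level (horizontal axis), 1 point per tested gene, with called genes coloured. With all 6 libraries 214 genes were called higher and 187 lower, mostly at large fold changes; without A1d replicate 1, 920 and 965, reaching down to smaller ones.

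The calls rested on few libraries. Without A1d replicate 2 or any 1 of the QZ1 replicates, limma called 0 genes with the other 5. In those fits 2735 to 4283 genes had an unadjusted p under 0.05. All of them kept A1d replicate 1. With it left out too, leaving out QZ1 replicate 1, 2 or 3 gave 357, 1955 and 297 calls. With all 6 libraries, voom, the form of limma for counts, called 10 on the recovered reads, and without A1d replicate 1 it called 1496. More genes were ordered by rootstock than were called. With so few libraries such ordering also arises by chance, so its counts are no counts of real differences. In 4394 genes (16.7%) every QZ1 library lay above every A1d library, and in 3580 (13.6%) below. With A1d replicate 1 left out these were 5918 genes (22.8%) and 6208 (23.9%); fewer libraries separate more easily, so the rise in these shares is no result. The 95% interval of the log2 fold change lay within 1 unit of 0 for 8126 genes (30.9%), and for 14780 (57.0%) without A1d replicate 1.

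**Figure D2:**
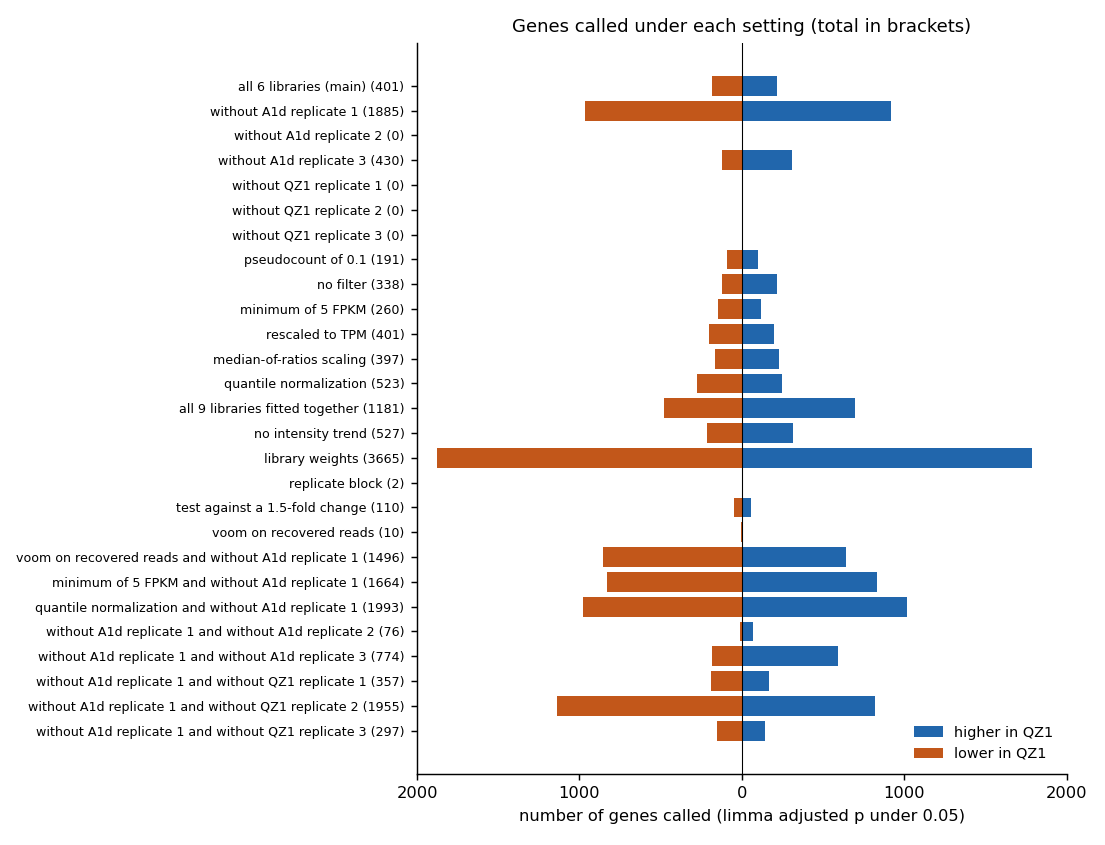
Number of genes called under each setting (horizontal axis), to the right for genes higher in QZ1 and to the left for lower ones, with the total in brackets. The 401 calls of the 6 libraries became 1885 without A1d replicate 1 and 0 without A1d replicate 2 or any 1 QZ1 replicate.

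MD00G1155400 had the largest rise in QZ1 among genes called with and without A1d replicate 1. Its identifier carries no numbered chromosome, and its length from the FPKM steps was 306 bases. It had 92.1, 62.9 and 58.2 FPKM in QZ1 replicates 1, 2 and 3. In A1d it had no read in replicates 1 and 2 and 3.45 FPKM, 19 reads, in replicate 3. The gene was thus abundant in each QZ1 library and near the detection limit in A1d, apart from that replicate. QZ1 exceeded A1d by 5.42 ± 0.60 log2 units (SE; limma adjusted p = 0.0168), or 5.07 ± 0.60 without A1d replicate 1 (limma adjusted p = 0.0119). WT was also low, with at most 0.974 FPKM.

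MD02G1140200, on chromosome 2, rose next most. QZ1 had 113, 115 and 119 FPKM of this transcript, a spread of only 3.08 FPKM (SD, n = 3). A1d had 0, 3.07 and 7.93 FPKM in replicates 1, 2 and 3. The groups did not overlap, and the lowest QZ1 library was well above the highest A1d library. The rise amounted to 5.14 ± 0.72 log2 units (SE; limma adjusted p = 0.0278), or 4.28 ± 0.31 without A1d replicate 1 (limma adjusted p = 0.00421). WT lay between the rootstocks, at 15.2, 19.2 and 14.2 FPKM.

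MD13G1124300, on chromosome 13, showed the largest fall on the log2(FPKM + 1) scale among genes called with and without A1d replicate 1. It had 50.9, 154 and 68.9 FPKM in A1d and 0.175, 1.09 and 0.174 FPKM in QZ1. All A1d libraries were high, and the QZ1 libraries held 33 reads together. The fitted log2 fold change stood at -5.86 ± 0.46 (SE; limma adjusted p = 0.0116), or -6.19 ± 0.42 without A1d replicate 1 (limma adjusted p = 0.00421). WT was low as well, at 0.649, 0.94 and 2.42 FPKM, so A1d was the rootstock set apart.

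MD03G1218400, on chromosome 3, followed the same order. With a pseudocount of 0.1 its fall was the larger, at -8.4 log2 units against -7.51 for MD13G1124300. A1d had 20.8, 43.1 and 56.7 FPKM, while QZ1 had 0, 0.0341 and 0 FPKM. QZ1 had 1 read in its 3 libraries and A1d 3450; per library total, A1d was 3601 times as high, with an exact 95% interval of 646 to 142291 that covers counting error only. On the log2 scale the change came to -5.24 ± 0.40 (SE; limma adjusted p = 0.0116), or -5.64 ± 0.22 without A1d replicate 1 (limma adjusted p = 0.00389). WT had 0.218, 0.185 and 0.256 FPKM, 5 to 7 reads per library.

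All 4 genes kept their direction in each alternative that tested them. Their choice favoured this: in each gene the QZ1 and A1d libraries did not overlap, so leaving out libraries could not turn the direction. None of the 4 kept its call without A1d replicate 2, without any 1 QZ1 replicate, or with voom on all 6 libraries. Adjusted p reached 0.126 for MD00G1155400, 0.169 for MD02G1140200, 0.135 for MD13G1124300 and 0.125 for MD03G1218400 over the alternatives. The lowest values over the alternatives were 0.00156, 0.000584, 0.000264 and 0.000135, in the same order.

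**Figure D3:**
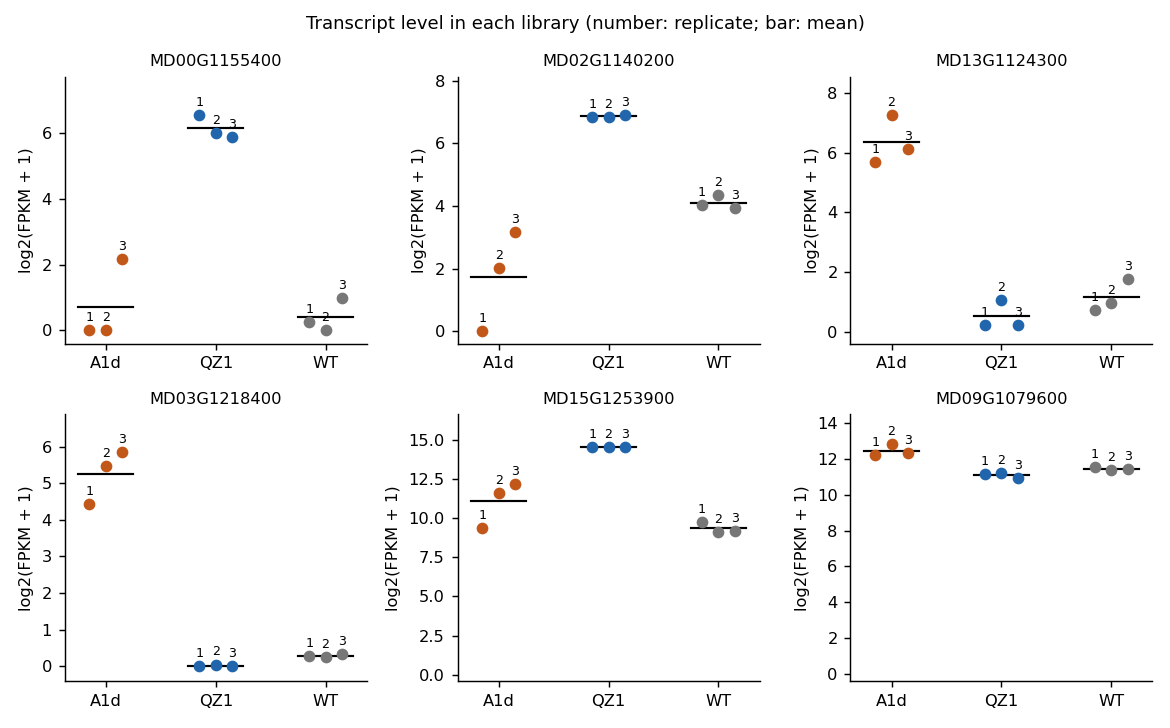
Level of 6 genes in each library as log2(FPKM + 1) (vertical axis), with libraries numbered by replicate and a bar at the group mean. MD00G1155400, MD02G1140200 and MD15G1253900 are higher in every QZ1 library than in any A1d or WT library, while MD13G1124300, MD03G1218400 and MD09G1079600 are lower in every QZ1 library than in any A1d library.

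Among the 25 most abundant transcripts none was called with all 6 libraries, and the pair described here, which passed without A1d replicate 1, was chosen after its values were seen. MD15G1253900, on chromosome 15, was the second most abundant gene over the 6 libraries. It had 24465, 24019 and 24202 FPKM in QZ1, where it took 1.38 to 1.4% of all reads. In A1d it had 676, 3161 and 4689 FPKM, 0.0387 to 0.269% of reads, and in WT 544 to 869 FPKM. QZ1 was high and nearly constant, and the A1d libraries were lower and unequal. With all 6 libraries the log2 fold change of 3.49 ± 1.17 (SE) missed the threshold (limma adjusted p = 0.189); without A1d replicate 1 it was 2.65 ± 0.57 (limma adjusted p = 0.0479). It was called in 5 of 26 alternatives, with adjusted p from 0.00616 to 0.653.

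MD09G1079600, on chromosome 9, lay the other way. It had 4766, 7347 and 5269.9 FPKM in A1d against 2283, 2369 and 1962 in QZ1, with WT at 2989.6, 2699 and 2777. The log2 difference of QZ1 from A1d was -1.37 ± 0.64 (SE; limma adjusted p = 0.315), or -1.50 ± 0.33 without A1d replicate 1 (limma adjusted p = 0.0487). It too was called in 5 of 26 alternatives, with adjusted p from 0.0195 to 1.0. Among the 25 genes with a mean of at least 1000 FPKM over the 6 libraries, limma called 0 with all 6 libraries and 4 without A1d replicate 1, among them these 2 genes; 1 of the 4 was higher in QZ1. Among 893 genes with at least 100 FPKM it called 14 (1.57%) with all libraries and 109 (12.2%) without A1d replicate 1, 62 of them higher in QZ1. Over all tested genes the shares called were 1.52% with all libraries and 7.27% without A1d replicate 1. The 10 most abundant genes together took 4.75 to 5.46% of reads in QZ1, 5.42 and 4.90% in A1d replicates 2 and 3, and 2.24% in A1d replicate 1.

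Genes called higher in QZ1 were mostly low or undetected in A1d. Over the 214 such genes of the 6-library fit, the median level was 8.69, 9.25 and 9.90 FPKM in QZ1 and 0, 0.284 and 0.517 FPKM in A1d. Of them 139 (65.0%) were at 0 in A1d replicate 1, 72 (33.6%) in replicate 2 and 55 (25.7%) in replicate 3. Over all tested genes those shares were 20.7, 2.27 and 1.11%. Genes called higher in QZ1 were chosen for lower A1d levels, which by itself favours larger shares at 0 in A1d. The part of the many zeros of A1d replicate 1 in these calls was not tested beyond leaving it out. Genes called lower in QZ1 were detected in every A1d library, and 29, 19 and 40 of the 187 were at 0 in QZ1 replicates 1, 2 and 3. They had medians of 23.3, 21.9 and 19.2 FPKM in A1d and 2.16, 3.71 and 2.12 FPKM in QZ1.

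The 5-library fit called genes with a smaller ratio between the rootstocks. The 920 higher genes had medians of 13.8, 13.8 and 14.6 FPKM in QZ1 against 4.05 and 5.26 FPKM in A1d replicates 2 and 3. The 965 lower genes had medians of 5.73, 5.84 and 5.38 FPKM in QZ1 against 18.6 and 17.6 FPKM. Though left out of that fit, A1d replicate 1 lay on the A1d side of both groups, with medians of 3.18 and 17.1 FPKM. It was at 0 in 341 of the 920 higher genes (37.1%), which by itself favours a low median there. It was also at 0 in 126 of the 965 lower genes (13.1%), all of which A1d replicates 2 and 3 detected. How far its many zeros set its place was not tested, so its low median in the higher genes is no independent check of those calls.

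**Figure D4:**
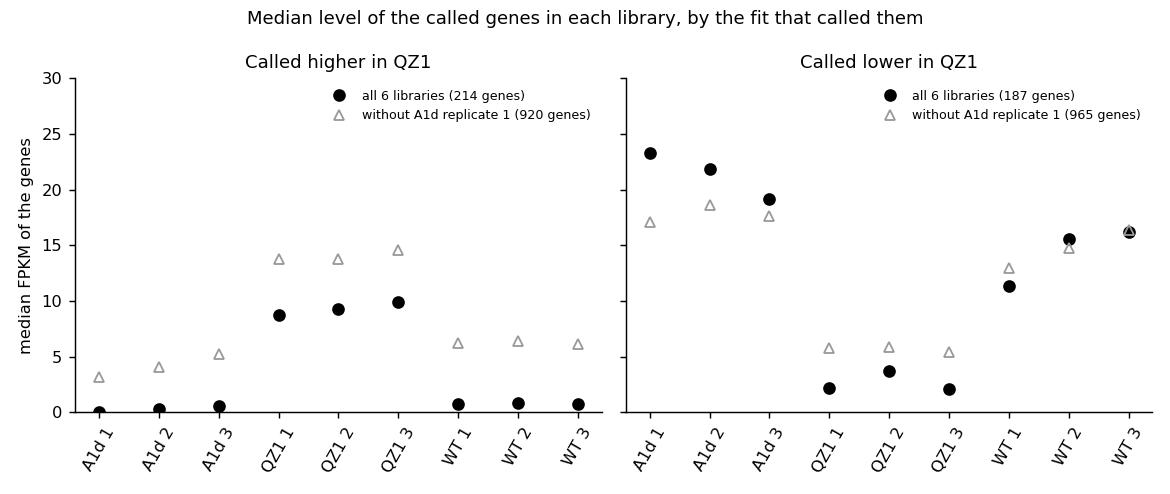
Median FPKM (vertical axis, from 0) of the called genes in each of the 9 libraries, for genes called higher and lower in QZ1, by the fit that called them. Both sets separate QZ1 from A1d by construction; WT, which entered neither fit, lies near A1d for the higher genes (0.736 to 0.808 FPKM in the 6-library set) and between the rootstocks for the lower genes.

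WT libraries, which had no part in choosing these genes, were on the whole closer to A1d than to QZ1. The WT mean was nearer to the A1d mean in 310 of the 401 called genes (77.3%), against 13163 of all 26304 tested genes. Among called genes higher in QZ1 it was nearer to A1d in 86.4%, against 42.8% of all tested genes with a higher QZ1 mean. Among called genes lower in QZ1 it was nearer in 66.8%, against 58.9% of those with a lower QZ1 mean, a smaller gap. In the 5-library fit the share was 71.7% of the 1885 called genes, beside 59.1% of all those tested. For higher genes it was 74.7%, beside 54.1%, a smaller gap than with 6 libraries. For lower genes it was 68.8%, beside 63.9%. All 3 WT libraries fell short of every QZ1 library, on the A1d side, in 334 of the 401 genes (83.3%, against 31.7% of all tested). They fell past every A1d library, on the QZ1 side, in 135 (33.7%, against 17.3%). Some genes satisfied both, with WT in between. The called genes were chosen for QZ1 set apart from A1d, which by itself favours WT falling short of QZ1 or past A1d. These shares are descriptions, since genes are not independent replicates.

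Some genes were expressed in 1 rootstock and had no read in the other. QZ1 had at least 1 FPKM in all 3 libraries of 81 genes without a read in any A1d library. A1d had at least 1 FPKM in all 3 libraries of 27 genes without a read in QZ1. In each library that expressed them such genes were low, with medians of 2.67 to 3.20 FPKM (34 to 45 reads) for the 81 in QZ1 and 3.09 to 6.14 FPKM (49 to 64 reads) for the 27 in A1d. Group means reached 18.4 FPKM among the 81 and 31.9 among the 27. The 81 lay on all 17 numbered chromosomes, with 7 on none, and their median length was 728 bases.

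WT divided these sets. Of the 81 genes found in QZ1 but not in A1d, 40 had no read in any WT library either, and 7 had at least 1 FPKM in all 3. Of the 27 genes found in A1d but not in QZ1, 1 had no read in WT and 15 had at least 1 FPKM in all 3 WT libraries. With a minimum of 5 FPKM, 11 and 5 genes remained in these sets. Limma called 43 of the 81 and 11 of the 27 with 6 libraries, as the choice of these genes favours.

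The size of both sets turned on single libraries of either rootstock. The QZ1 set held 82 genes and the A1d set 58 without A1d replicate 1. Leaving out A1d replicate 3 gave 323 and 29 genes, and A1d replicate 2 107 and 33. Leaving out QZ1 replicate 1 gave 127 and 34 genes, and QZ1 replicate 2 100 and 60. A1d replicate 3 had reads where its fellow replicates had none: of 338 genes with at least 1 FPKM in every QZ1 library and no read in A1d replicate 2, 256 (75.7%) had a read in A1d replicate 3 and 15 in replicate 1. There its median ratio to the QZ1 mean was 28.0%. Of 147 such genes that had no read in WT either, 106 (72.1%) had a read in A1d replicate 3. In the converse count, 36 of 118 genes (30.5%) without a read in A1d replicate 3 had one in replicate 2. A1d replicate 3 also had higher r with QZ1 (0.889 to 0.906) than A1d replicate 2 did (0.871 to 0.886). Of 36 genes with at least 1 FPKM in every WT library and no read in QZ1 or A1d replicate 2, 9 (25%) had a read in A1d replicate 3. Whether that library holds material or reads of QZ1 was not tested, and its values may not stand for A1d alone. Leaving it out gave 430 calls, 307 higher and 123 lower in QZ1, and 250 of them shared with the 401.

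Called genes were spread over the genome. The chromosome was taken from the first digits of each identifier, as in the GDDH13 apple annotation, which these identifiers resemble; the file does not say so. The share of tested genes called ran from 0.832% on chromosome 14 to 2.47% on chromosome 9, around 1.52% for all. With 5 libraries it ran from 5.17% on chromosomes 6 and 14 to 10.6% on chromosome 9, where 153 of 1447 genes were called, 67 of them higher in QZ1. Chromosome 2 leaned to lower genes in the 6-library fit, with 9 higher and 25 lower. With 5 it had 69 higher and 79 lower. Among identifiers MD10G1180000 to MD10G1190000, taken as the surroundings of the Co locus, 1 of 37 tested genes was called with all libraries (2.7%) and 3 without A1d replicate 1 (8.11%), beside 1.52 and 7.27% of all tested genes.

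**Figure D5:**
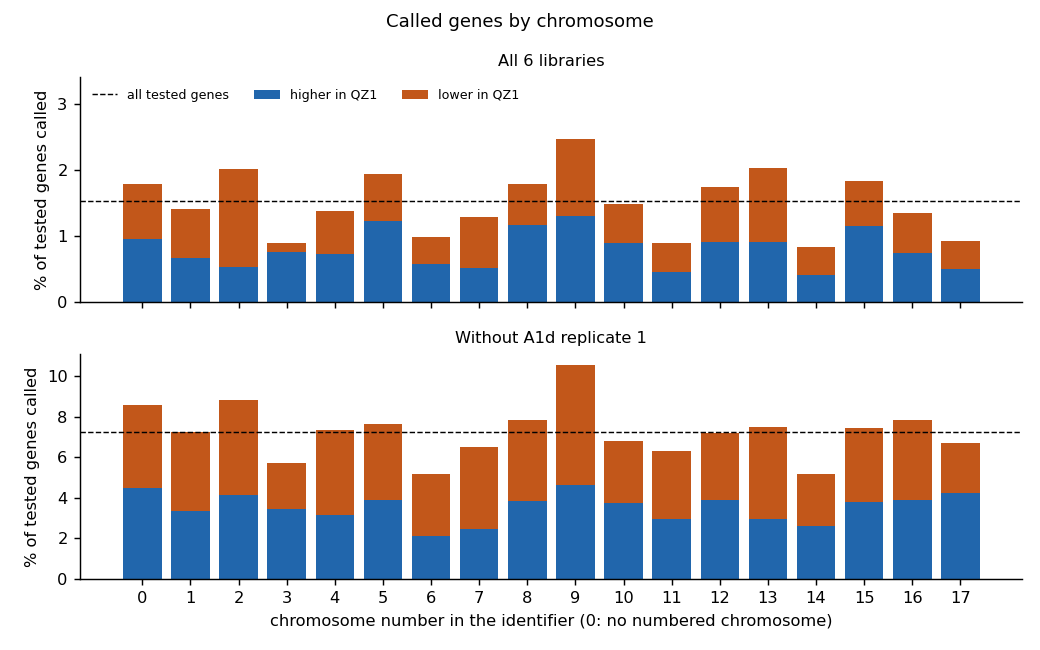
Share of tested genes called (vertical axis, %, from 0) by the chromosome number in the identifier, split into genes higher and lower in QZ1, with the share over all tested genes as a dashed line. Chromosome 9 has the highest share in both fits, 2.47% and 10.6%.

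Neighbouring genes were at times called together. In the 6-library fit 62 of the 401 genes stood directly beside another tested gene called in the same direction, in 29 runs, and 4 of those runs held 3 genes. The 5-library fit had 172 such runs with 384 genes, of which 28 runs held 3 or more genes, 18 of them higher in QZ1. Called genes were 1.52 and 7.27% of those tested in the 2 fits, and more calls give more runs, so the rise is no result. Whether the runs exceed what these shares alone would give was not tested. One run on chromosome 2 comprised 3 genes lower in QZ1, with summed levels of 238, 105 and 60.4 FPKM in A1d and 0, 8.85 and 0 FPKM in QZ1. WT had at most 0.299 FPKM of their sum. A1d alone was high over that run, with log2 fold changes of -5.22 to -3.98 (highest limma adjusted p = 0.0421). It lay in the stretch of 50 tested genes with the most calls, 7, of which 6 were lower in QZ1; the median stretch held 0.

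Runs of higher genes were seen on other chromosomes. On chromosome 12, 3 neighbouring genes had summed levels of 16.2, 21.3 and 19.6 FPKM in QZ1, at most 0.656 in A1d and 0.888 to 2.15 in WT. On chromosome 15, 3 neighbours had summed levels of 32.6, 24.4 and 36.6 FPKM in QZ1 against 2.25, 4.39 and 2.31 in A1d. The longest run, of 5 genes on chromosome 16, was found without A1d replicate 1. Its summed levels were 51.0, 47.9 and 56.5 FPKM in QZ1, 2.71 and 9.10 in A1d replicates 2 and 3, and 15.6 to 20.7 in WT, between the rootstocks. These runs were picked for their length after the values were seen. Neighbouring genes of similar sequence may share reads, which the file does not let one check.

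Short genes were called more often in both fits. In the 6-library fit 2.31% of the quartile of shortest genes (up to 1006 bases) and 0.928% of the longest quartile (from 2218 bases) were called. With 5 libraries the shares were 10.2 and 5.11%. The median log2 fold change of all tested genes also moved with length in the 6-library fit, from 0.32 in the shortest quartile to -0.12 in the longest. Leaving out A1d replicate 1, it stayed between -0.05 and 0.01 in the 4 quartiles. By level, the lowest quartile leaned to genes higher in QZ1 (71 of 90 calls) and the highest to lower genes (36 higher of 102). In the 5-library fit these splits were 204 of 391 and 284 of 622.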

How the data were processed

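The authors deposited FPKM for 9 phloem libraries, 3 per rootstock, from polyadenylated RNA and a stranded library kit, per the labels' protocols; the unit is taken from the name of the deposited file. Trimmomatic, a read trimmer, is listed in the submitters' processing notes. The labels name no aligner, counting tool, genome build or annotation (not given in the sources used here). Reads of near-identical or overlapping genes may therefore have been split. Reads of QZ1 and of the M. hupehensis libraries may also align unequally well, and which side this favours was not tested.

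Library totals, gene lengths and whole reads were recovered from the FPKM steps. All 37548 genes above 0 gave whole numbers in each library, to within 0.0001 reads and the rounding of the file. A read may here stand for a read pair.

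QZ1 and A1d were compared on log2(FPKM + 1) with limma 3.58.1 (R 4.3.3), empirical Bayes moderation with an intensity trend, and Benjamini-Hochberg adjustment over all tested genes. This scale understates changes of low genes. Fits and recovery were tested on simulated data. For the fits these had the same spread per gene in both groups and no library set apart, so they cannot show the effect of A1d replicate 1. Other values used Python 3.11.15, numpy 2.4.6, pandas 2.3.3, scipy 1.17.1 and matplotlib 3.10.9. Named genes were the 2 largest rises and 2 largest falls called with and without A1d replicate 1. Planned gene lists and cell type markers needed gene names and were not used. Members, rules and lists were chosen with earlier results of these data known. No pair of the 6 libraries held identical values.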

Additional observations from a re-analysis of the deposited data

How the results depend on the processing

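Genes called, higher and lower are given in that order, beside 401, 214 and 187. Leaving out 1 library gave 0 to 1885, 0 to 920 and 0 to 965. A pseudocount of 0.1 gave 191, 98 and 93; a minimum of 5 FPKM 260, 116 and 144; no filter 124 lower; quantile normalization 523, 245 and 278. All 9 libraries fitted together gave 1181, 699 and 482; library weights, lower for libraries that vary more (0.0857 for A1d replicate 1), 3665, 1786 and 1879; a test against a 1.5-fold change 110, 59 and 51; voom 10, 4 and 6. The remaining settings were added after the data were examined, all without A1d replicate 1: voom gave 1496, 640 and 856; a minimum of 5 FPKM 1664, 832 and 832; quantile normalization 1993, 1016 and 977. Leaving out a second library gave 76, 66 and 10 (A1d replicate 2), 774, 590 and 184 (A1d replicate 3), 357, 169 and 188 (QZ1 replicate 1), 1955, 818 and 1137 (QZ1 replicate 2) and 297, 144 and 153 (QZ1 replicate 3); a lone A1d library is assumed to vary like QZ1. No gene of the 401 reversed its direction in any setting that tested it. Each setting reused these libraries and the genes were chosen for their difference in them, so a reversal was unlikely from the start. The cause of the moves in the counts was not tested.

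Without intensity trend the counts were 527, 314 and 213. Genes of QZ1 without a read in A1d numbered 82 to 323, beside 81 with all libraries, and of A1d without a read in QZ1 29 to 60, beside 27, on leaving out 1 library; with a minimum of 5 FPKM they were 11 and 5, and without A1d replicate 1 also 11 and 8.

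Deviations from the group means correlated at -0.03, -0.09 and -0.03 between same-numbered libraries. A1d replicate 1 lay far from the other A1d libraries and so sets much of the A1d deviations. These correlations therefore cannot tell whether same-numbered libraries were paired. With the replicate number as a block 2 genes were called, 1 higher and 1 lower.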
